A study of Chrysanthemum x morifolium with 4 samples.

Results

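In chrysanthemum leaves, 131 of the 93837 unigenes listed stood far higher after cold acclimation followed by freezing than after either treatment alone or in the control. Unigenes are transcripts pieced together from the reads. The members were chosen on the FPKM values deposited by the authors (counts scaled by the length of the unigene and by the total counts of the library). A unigene was taken where its FPKM in the acclimated and frozen library was at least 5 and at least 4 times its highest FPKM in the other 3 libraries. The 131 made up 0.794% of the 16498 unigenes at 5 FPKM or more in that library. Their peak there, and its height over the other libraries, were set by this choice and are described without a test.

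The plants were tissue-cultured seedlings of Chrysanthemum x morifolium, cultivar Jinba, grown in pots, and RNA was taken from their leaves. Control leaves were kept in normal conditions, acclimated leaves were held at 4 °C for 24 h, acclimated and frozen leaves had that treatment and then -4 °C for 4 h, and leaves frozen without acclimation had -4 °C for 4 h alone. Each treatment has 1 library, made from the mixed leaves of 3 replicates. The spread between plants was therefore not measured, no p-value is given, and every interval below covers counting error only. The acclimated and frozen leaves also spent the longest time in the cold, 24 h and then 4 h, so the combination of treatments and the length of exposure cannot be told apart. Libraries held 14024558 to 15781435 counts.

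Many temperate plants become more tolerant of freezing after a spell at a low temperature above 0 °C, a process called cold acclimation. In Arabidopsis, where this is best known, transcription factors of the CBF family rise within hours of chilling and activate COR genes, whose products help to protect membranes and proteins from the loss of water that ice outside the cells brings about. Freezing itself then adds dehydration and membrane damage, and the response to it is read in leaves whose state acclimation has already changed. The file does not pair its identifiers with gene names, so no role or pathway can be given to the members, and they are described by their levels in the 4 libraries, their lengths and their identifiers.

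Most members were under 1 FPKM in control leaves (100 of 131), most were under 5 FPKM after each single treatment, and they spread over a wide range after both. At 5 FPKM or more were 5 members in the control, 16 after acclimation alone and 27 after freezing alone. In the acclimated and frozen library their FPKM ran from 5.004 to 455, with a median of 11.1. In the control the median was 0.272 FPKM and the highest value 24.3. After acclimation alone the median was 1.08 and the highest value 45.3, and after freezing without acclimation these were 1.53 and 101. The medians after both single treatments thus lay above that of the control, while the peak after both was set by the rule. Over the 16498 unigenes at 5 FPKM or more after both treatments the medians rose in the same order. They were 13.8 FPKM in the control, 15.3 after acclimation and 16.8 after freezing alone, so this order was not particular to the members. In 109 of the 131 unigenes the control value was the lowest of the 4 or equal to the lowest. The share of all unigenes with the control lowest was not computed. In bulk leaf tissue, fewer cells that carry a transcript and less of it per cell cannot be told apart.

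**Figure D1:**
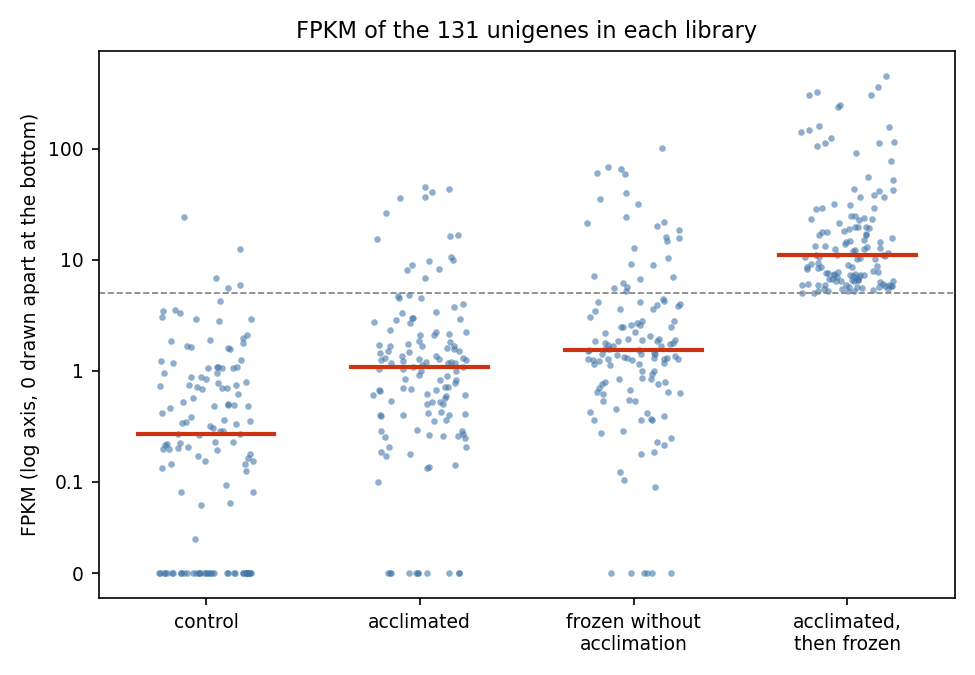
FPKM of each of the 131 unigenes (points) in the 4 libraries, 1 library per treatment, on a log axis with values of 0 drawn apart at the bottom. Red bars are medians over unigenes (0.272, 1.08, 1.53 and 11.1 FPKM from left to right), and the dashed line is the minimum of 5 FPKM used to choose the members in the acclimated and frozen library.

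Few of the members were confined to the acclimated and frozen leaves. No count was found in any of the other 3 libraries for 2 members, each with 22 counts after acclimation and freezing (6.59 and 5.88 FPKM). A count of 0 allows up to 3 counts, or 0.190 to 0.209 CPM (counts scaled to a common library total) in those libraries. Of these 2 members, the one at rank 101 shares the number before the dot of its identifier with a unigene counted in every library. That unigene had 1.63 FPKM in the control, 1.82 after acclimation, 24.0 after both treatments and 8.40 after freezing alone. A further group stayed low throughout: 28 members, with those 2 among them, were under 1 FPKM in all 3 other libraries. For 75 members the highest of the other libraries lay between 1 and 5 FPKM, and for 28 it was at 5 FPKM or more, the level at which a unigene could itself enter the set. The name "high only in freezing after acclimation" therefore holds as a ratio, and for those 28 it does not hold as a level. In the control 38 members had no count, against 11 after acclimation and 6 after freezing alone. Of the 16498 unigenes at 5 FPKM or more after both treatments, 128, 55 and 13 had none, in the same order of libraries.

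Relative to its own level after both treatments, a member stood at a median of 1.91% in the control, 8.06% after acclimation and 14.0% after freezing alone. The rule capped each of these at 25%. Freezing alone reached 20% or more for 35 members, acclimation alone for 18 and the control for 1. Together the members held 0.512% of the acclimated and frozen library (exact binomial 95% interval 0.508 to 0.515%). They held 0.0122% of the control (0.0117 to 0.0128%), 0.0491% of the acclimated library (0.0480 to 0.0502%) and 0.0907% of the library frozen without acclimation (0.0891 to 0.0923%). A single unigene supplied 22.3% of the members' counts after both treatments and the 10 most abundant supplied 57.02%. Without that unigene the shares were 0.397%, 0.0115%, 0.0377% and 0.0654% in the same order.

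The most abundant member was c115834.graph_c0. Its level was 2.80 FPKM in the control, 45.3 after acclimation, 455 after both treatments and 101 after freezing alone, from 111, 1727, 16025 and 3630 counts. It took rank 153 among all unigenes of the acclimated and frozen library. It was far from silent after either single treatment, and both of those libraries stood well above the control. Its peak was 4.52 times the next library (95% interval 4.36 to 4.68). The second, c107386.graph_c0, had 24.3 FPKM in the control, 42.9 after acclimation, 358 after both treatments and 68.1 after freezing alone. It had the highest control level of all members, and its rise after a single treatment was small beside that of the first. Its peak was 5.26 times the next library (4.86 to 5.70).

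The next 8 members in abundance kept the same order of the frozen libraries but differed in what acclimation alone did. The fifth had no count in the control, 2.99 FPKM after acclimation, 301 after both treatments and 31.7 after freezing alone. The sixth had 0.145, 1.81, 248 and 61.0 FPKM in that order, and the eighth 0.489, 1.09, 159.6 and 21.4. In these, acclimation alone left the level at a few FPKM or less, whereas the level after freezing alone was 21.4 FPKM or more. The third and the fourth were close in level after acclimation alone and less so after freezing alone, the third with 3.49 FPKM in the control, 36.9 after acclimation, 326 after both and 65.9 after freezing alone. The fourth had 1.23, 35.9, 307 and 40.3 FPKM. The seventh had 6.90, 40.8, 236 and 58.9 FPKM and the ninth 1.91, 1.74, 157 and 20.1, so the ninth was level between control and acclimation. The tenth had 2.09, 6.81, 147 and 14.8 FPKM. In all 10, freezing alone gave the highest FPKM of the other 3 libraries. With TMM the fourth was level between the single treatments, with a log2 ratio of freezing alone to acclimation of -0.02.

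**Figure D2:**
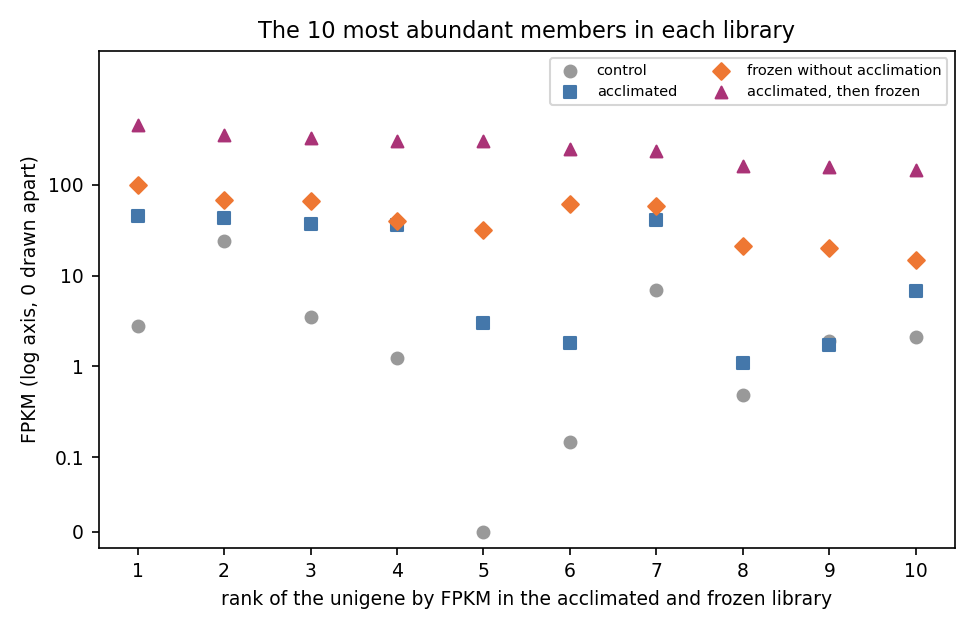
FPKM in each library (log axis, 0 drawn apart) of the 10 members with the highest FPKM after acclimation and freezing, ranked from left to right. In FPKM the unacclimated frozen library (diamonds) is the nearest to the peak (triangles) in each of the 10, from 101 at rank 1 to 14.8 at rank 10. The acclimated library (squares) varies from 1.09 to 45.3 FPKM. With TMM the member at rank 4 is level between the single treatments (log2 ratio of freezing alone to acclimation -0.02).

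The height of the peak over the next library was moderate for most members. Among the 129 members with a count in another library the ratio to the next library had a median of 5.58, from 4.004 to 65.5. It was under 5 for 50 members and from 5 to 8 for 45. It was 8 or more for 36 and 16 or more for 13, both with the 2 members that had no count elsewhere. The largest ratio came from few counts: that unigene had 64 counts (5.87 FPKM) after both treatments, 1 after freezing alone and 0 in the control and after acclimation, and its interval ran from 11.3 to 2626. The member at rank 26 had the highest lower bound of this interval. It had 0.0307 FPKM in the control, 0.287 after acclimation, 36.5 after both treatments and 1.93 after freezing alone, from 1, 9, 1055 and 57 counts, a ratio of 18.9 (14.5 to 25.2). Next came the member at rank 49, with 0, 0.504, 16.6 and 0.622 FPKM in the same order and a ratio of 26.6 (12.7 to 67.1).

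Counting error alone left many members near the limit. The 95% interval of the ratio lay wholly at or above 4 against each other library for 56 members and reached below 4 for 75, although it stayed at or above 2 for 127. On the other side of the limit, 135 unigenes at 5 FPKM or more in the acclimated and frozen library were not members but had intervals that reached 4. The member closest inside had 17.6 FPKM after both treatments and 4.39 after freezing alone, a ratio of 4.004, from 411 and 105 counts. The unigene closest outside had 8.998 and 2.25 FPKM, from 129 and 33 counts. At the minimum of 5 FPKM, the member closest inside stood at 5.004 FPKM (20 counts) and the unigene closest outside at 4.97 FPKM (38 counts). The size of the set also followed the scaling of the libraries, since FPKM is scaled by total counts. With libraries scaled by TMM, which lowers the frozen library without acclimation relative to the acclimated and frozen one, 190 unigenes met the rule and with median-of-ratios factors 221, each with all 131 members among them.

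For most members the library nearest to the peak was the unacclimated frozen one. The highest of the other 3 values came after freezing alone for 81 members, after acclimation alone for 43 and in the control for 5, the remaining 2 having no count in any. Freezing alone gave the higher FPKM of the single treatments for 82 members and acclimation alone for 47. With TMM or with median-of-ratios factors this became 74 against 55, so the lean is smaller on those scales. The share of all unigenes with this order was not computed. In FPKM, the 16498 unigenes at 5 FPKM or more after both treatments had medians of 16.8 after freezing alone and 15.3 after acclimation. With TMM and every count under 3 raised to 3, the median log2 ratio of freezing alone to acclimation was 0.14 over members and -0.12 over those unigenes. The rule capped all 3 libraries alike and did not set their order.

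**Figure D3:**
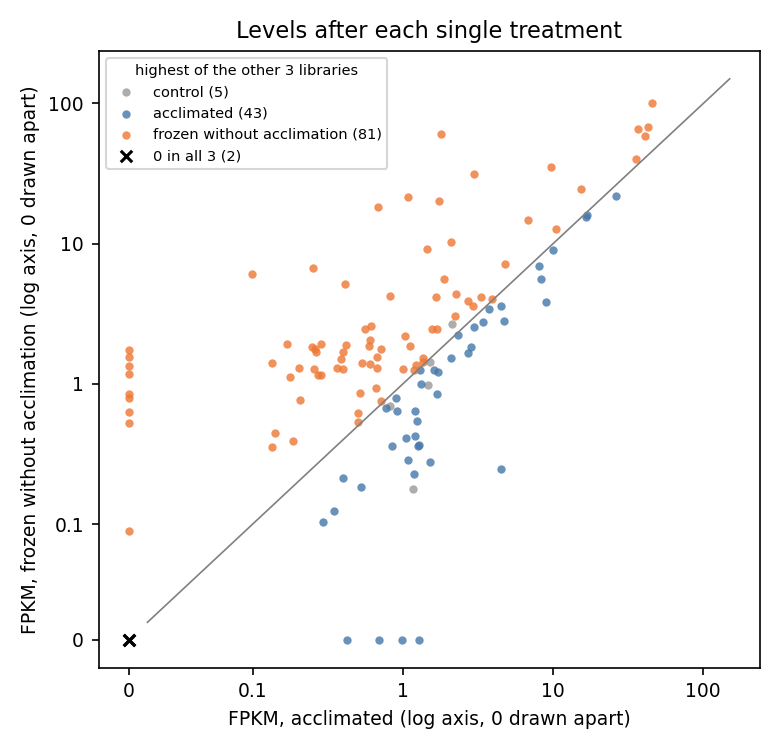
FPKM after acclimation alone (x axis) against FPKM after freezing alone (y axis) for the 131 members, both on log axes with 0 drawn apart, coloured by the highest of the other 3 libraries. Points above the diagonal, 82 in number, had the higher level after freezing alone. The 11 members in the column at the left had no count after acclimation.

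Many members stood higher than the control after freezing without acclimation. Calls required the exact 95% interval of the ratio of TMM-scaled counts to lie wholly beyond 2-fold, upwards for a higher and downwards for a lower call. After freezing alone 43 members were called higher than in the control and 0 lower, of 125 with a count in either library. Over all 81889 unigenes compared, 3.03% were called higher and 1.27% lower. The rule capped the control level of a member, which leaves less room for a lower call and more for a higher one. The control median was 0.272 FPKM over members and 13.8 over the unigenes at 5 FPKM or more after both treatments. The shares of members and of all unigenes are therefore set side by side without a test. With at least 10 counts over the pair of libraries, 43 of 92 members were called higher and 0 lower, against 6.37% and 2.5% of all unigenes with as many counts. Of the 16498 unigenes at 5 FPKM or more after both treatments 8.18% were called higher, beside 32.8% of the 131 members. The medians of the 43 were 0.226 FPKM in the control, 1.74 after acclimation, 5.57 after freezing alone and 37.0 after both treatments. Their median log2 ratio of freezing alone to control was 3.23 (range 1.32 to 6.97), with every count under 3 raised to 3. Over all 131 members that median was 1.20, against -0.03 over the 48004 unigenes that had 10 counts or more. The 3 most abundant of the 43 were those at ranks 1, 2 and 3, whose values are given above.

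Fewer stood higher than the control after acclimation alone, a difference that was not tested. Of 120 members with a count in either library, 24 were called higher after acclimation than in the control and 0 lower, beside 4.79% higher and 4.02% lower of the 78314 unigenes compared. The cap on the control level applies to this comparison too. With at least 10 counts over the pair, 23 of 79 members were called higher and 0 lower, against 9.74% and 8.37% of all. Of the unigenes at 5 FPKM or more after both treatments 15.5% were called higher, beside 18.3% of the 131 members, so against unigenes of that level the share of members was near the background. The 24 had medians of 0.760 FPKM in the control, 8.20 after acclimation, 7.96 after freezing alone and 66.0 after both treatments. Their median log2 ratio of acclimation to control was 2.93 (range 1.44 to 4.89), again with every count under 3 raised to 3. Over all 131 members the median was 0.99, against 0.08 over all unigenes with 10 counts or more. The most abundant of the 24 were at ranks 1, 3 and 4. This comparison and the one before it share the control library, so their calls are given side by side and not crossed.

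The single treatments also differed from each other for a minority of members. After freezing alone 16 members were called higher than after acclimation alone and 2 lower, of 129 with a count in either, beside 4.15% higher and 3.45% lower of the 82390 unigenes compared. With at least 10 counts over the pair there were 101 members, and the same numbers of calls, against 8.94% higher and 7.26% lower of all. Of the unigenes at 5 FPKM or more after both treatments 8.94% were called higher, beside 12.2% of the 131 members, so against unigenes of that level the excess was small and was not tested. The members called lower were 1.55% of the 129, under the 3.45% of all unigenes compared. The 16 had medians of 0.751 FPKM after acclimation, 7.95 after freezing alone and 38.9 after both. The most abundant of them were at ranks 5, 6 and 8. Both unigenes called lower are named here after their values were seen. Unigene c87062.graph_c0 had 0 FPKM in the control, 4.48 after acclimation, 19.9 after both treatments and 0.249 after freezing alone, from 0, 38, 156 and 2 counts. Unigene c104535.graph_c0 had 0.505, 1.52, 7.33 and 0.278 FPKM in the same order, from 10, 29, 129 and 5 counts. In these 2 the order of the single treatments follows from the call that picked them. Their level after both treatments was at least 4 times that after acclimation by the rule. In the contrasts that the rule itself used, 130 members were called higher after both treatments than after acclimation (3.46% of all unigenes), 129 higher than after freezing alone (3.42% of all) and 131 higher than in the control (6.98% of all). Those calls were largely fixed by the choice of members.

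Whether the level after both treatments went past what the single responses would give when multiplied was described for each member. The product is the acclimated level times the level after freezing alone, divided by the control level, and the value given is the log2 of the observed level over it. The value uses the contrast that chose the members and is not a test. Its 95% counting interval lay above 0 for 54 members, below 0 for 4 and across 0 for 73. The median was 1.85, from -3.41 to 5.70. Over the unigenes with at least 10 counts, 12.5% had an interval above 0 and 16.9% below, and over the 16498 at 5 FPKM or more in the acclimated and frozen library 24.2% and 28.3%.

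The limit on this reading was the control count. With at least 10 control counts (38 members) the interval lay above 0 for 29, below for 3 and across for 6, beside 24.8% above and 28.6% below of the 15917 unigenes at 5 FPKM or more with as many control counts. With fewer (93 members) it lay above for 25, below for 1 and across for 67, and there the interval, which rests on a normal approximation and an added 0.5 count, is wide and approximate. The 4 members below the product were among the most abundant, at ranks 1, 3, 4 and 11. For c115834.graph_c0 the value was -1.60 (interval -1.88 to -1.32), so its 455 FPKM lay under the product of its single responses. The members at ranks 3, 4 and 11 had -0.85 (-1.15 to -0.55), -1.59 (-2.74 to -0.44) and -1.40 (-2.28 to -0.52). For c107386.graph_c0 it was 1.81 (1.57 to 2.05), and for the member at rank 34, with 0.705 FPKM in the control, 0.592 after acclimation, 23.9 after both treatments and 1.88 after freezing alone, it was 4.14 (3.24 to 5.04). That member was called neither higher nor lower than the control by 2-fold after either single treatment. Its log2 ratio of freezing alone to control was still 1.25 with TMM, from 63 and 26 counts.

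**Figure D4:**
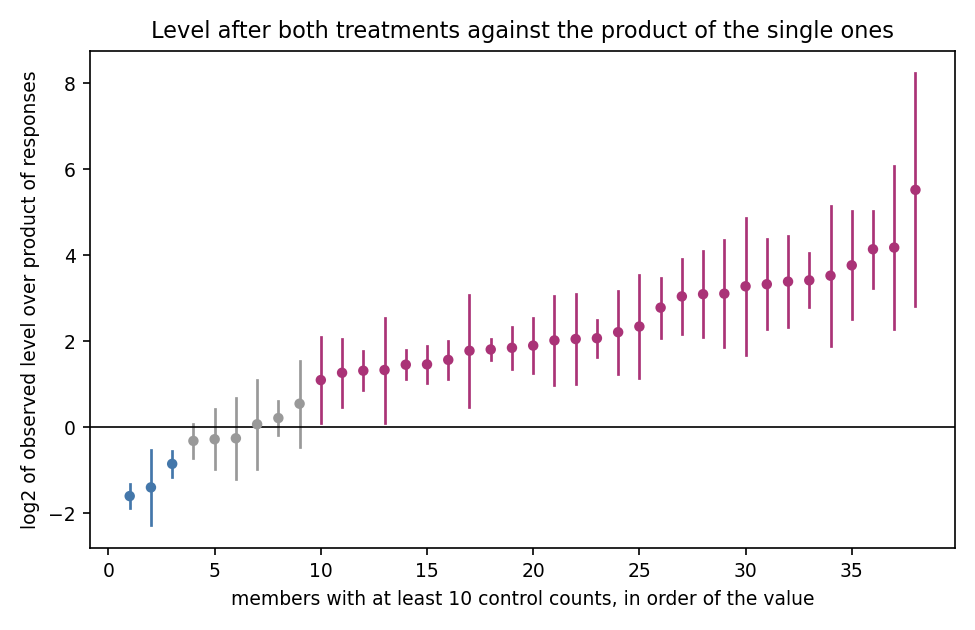
Log2 of the level after both treatments over the product of the single responses, for the 38 members with at least 10 control counts, in order of the value. Vertical lines are 95% counting intervals from 1 library per treatment. The interval lies above 0 for 29 members, below for 3 and across 0 for 6.

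Calls after the single treatments were more frequent among abundant members. Of the 58 members at 5 to 10 FPKM after both treatments, 7 were called higher after freezing alone than in the control and 1 after acclimation alone. Over all unigenes of that class 5.84% and 9.41% were called. Of the 16 members at 100 FPKM or more, 15 and 10 were (93.8% and 62.5%), beside 19.9% and 33% of all unigenes of that class. Of the 22 at 20 to 100 FPKM, 59.1% and 45.5% were, beside 9.82% and 20.9% of all. Calls were also more frequent among all unigenes of the upper class than of the lower, and the 2 rises were not compared by a test. In the lower class the share of members called after acclimation, 1.72%, lay under that of all unigenes. Scarce members have fewer counts from which to be called, and the part of depth in this difference was not tested. The medians of the 58 were 0.149 FPKM in the control, 0.414 after acclimation, 0.793 after freezing alone and 6.54 after both. Those of the 16 were 1.998, 12.7, 28.0 and 158. The 35 members at 10 to 20 FPKM had medians of 0.481, 1.21, 1.85 and 13.4, and the 22 at 20 to 100 FPKM 0.532, 2.85, 4.71 and 31.5. In each class the 4 medians kept one order, with freezing alone above acclimation alone.

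The members were short. The length implied by count and FPKM had a median of 652 bases (order-statistic 95% interval 588 to 742, range 206 to 2521). The 16498 unigenes at 5 FPKM or more in the same library had a median of 1197 (1183 to 1212). Under 500 bases were 44 members (33.6%) against 8.72% of those unigenes, and 6 members (4.58%) against 18.5% had 2000 bases or more. Short unigenes carry fewer counts at a given FPKM. With at least 50 counts in that library, 99 members had a median of 780 bases (672 to 899) and all such unigenes 1250 (1235 to 1265). At 20 FPKM or more the medians were 824 for 38 members and 1364 for all 6522 unigenes. The share of unigenes that were members went from 5.53% (12 of 217) under 300 bases to 0.197% (6 of 3050) at 2000 bases or more. With at least 50 counts it went from 4.92% (3 of 61) to 0.197%.

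**Figure D5:**
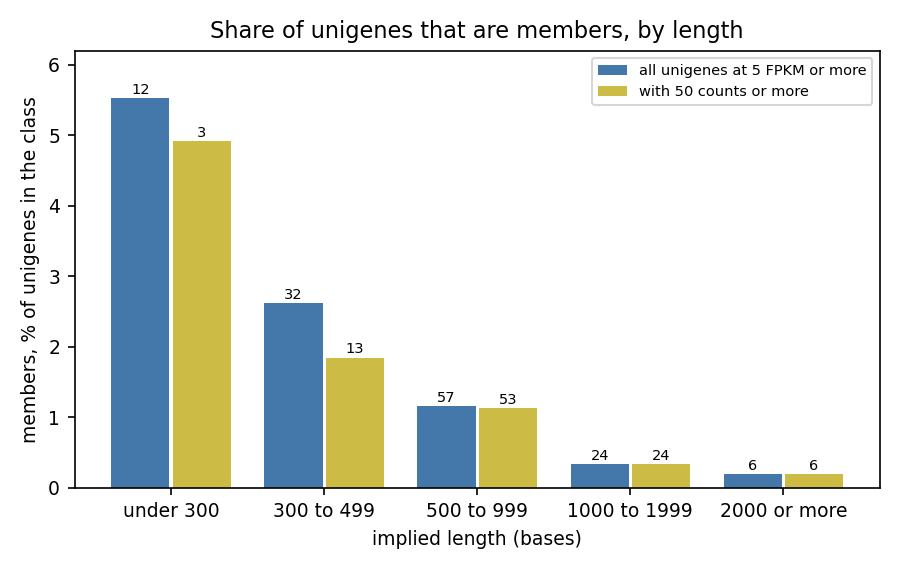
Members as a percentage of the unigenes at 5 FPKM or more after acclimation and freezing, by implied length, for all of them and for those with 50 counts or more there. Numbers over the bars are counts of members. In both series each class has a lower share than the next shorter class, from 5.53% and 4.92% under 300 bases to 0.197% at 2000 bases or more.

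Some members shared the number before the dot of their identifier with another listed unigene. This held for 20 of the 131 (15.3%), beside 16.8% of all unigenes at 5 FPKM or more in that library. No source used here says what a shared number means for the sequences, and reads of similar transcripts could be split between such unigenes. For 1 number both unigenes were members, at ranks 92 and 100. They had 7.30 and 6.63 FPKM after both treatments, 0.931 and 0.856 after freezing alone, 0.660 and 0.520 after acclimation and 0.352 and 0.334 in the control, and so kept the same order of libraries. The other numbers brought in 20 unigenes that were not members. Of the 19 with at least 10 counts, 9 had their highest FPKM after both treatments, as did 18.6% of all unigenes with at least 10 counts. The partner of the sixth most abundant member fell just short of the rule, with 0 FPKM in the control, 0.551 after acclimation, 188 after both treatments and 51.8 after freezing alone, a ratio of 3.63. The partner of c115834.graph_c0 went another way, with 391 FPKM in the control, 332 after acclimation, 256 after both treatments and 442 after freezing alone. The partner of the third member likewise had its lowest level after both treatments, 24.2 FPKM, against 58.7 in the control.

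The same rule with another library on top gave 118 unigenes for freezing without acclimation, 53 for acclimation alone and 92 for the control. The set described here was thus the largest of the 4 on this scale and also with TMM, where the set numbered 190, against 88 for freezing alone, 56 for acclimation alone and 102 for the control. The margin over the set for freezing alone depended on scaling, 131 against 118 with totals and 190 against 88 with TMM. Scaling by totals moves the log2 ratio of these frozen libraries by -0.26 relative to TMM. Each frozen set had the other frozen library nearest most often, for 66 of the 118 and for 81 of the 131. A frozen library was also nearest most often in the other sets. It was that of freezing alone for 48 of the 92 in the control set, and that of both treatments for 26 of the 53 in the acclimated set. The share with 5 FPKM or more in another library was 21.4% here and 28.0% in the set for freezing alone. It was 29.35% in the control set and 18.87% in the acclimated set. Short length was common to all 4 sets, with medians of 732 bases for freezing alone, 817 for acclimation and 664 for the control. Without replicates these differences between sets were not tested.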

How the data were processed

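RNA-seq of leaves gave 1 library for each of 4 treatments. Per the file headers, the deposited table has a count column and an FPKM column for each library, and these were tied to samples by title. The count columns, deposited without normalization, hold whole numbers. The FPKM deposited by the authors equal count over library total over a length common to all libraries (largest relative difference 2.04e-08), from which length was computed. The submitters' processing notes list Bowtie 0.12.2, Cufflinks and a mouse build (mm8). No source used here gives the role of that build, the assembler, the counting rule or the use of strand.

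The members, lists and alternatives were chosen with earlier results of these data known. For calls, libraries were scaled by TMM (edgeR 4.0.16, R 4.3.3; factor 0.993 for the control, 0.976 for acclimation, 0.928 for both treatments and 1.11 for freezing alone), with Clopper-Pearson 95% intervals on ratios (scipy 1.17.1). Intervals on peak ratios use total counts, as FPKM does. No count model was fitted. The product of responses used an added 0.5 count and the counting variance of 4 log2 counts. A count of 0 allows 3 counts, 0.190 to 0.214 CPM. The calculations were run on simulated Poisson counts without differences in library composition and scaled by totals. That run does not cover TMM scaling or the spread between plants. Unigenes were named by a rule: by identifier the 2 most abundant members and any called lower than the control (0 were). A further 2, called lower after freezing alone than after acclimation, were named after their values were seen. By rank, the rule took the next 8, those with the largest lower bounds of the ratio, those at the limits and the 3 most abundant called higher in each comparison. Alternatives that ask for at least 10 counts, the length of all unigenes with at least 50, and the shares called or above the product among unigenes of like FPKM or at other limits, were chosen after seeing the data.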

Additional observations from a re-analysis of the deposited data

How the results depend on the processing

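Of 66 alternatives over 15 results, 38 stayed within the limits set (1.5 times for a count) and 28 moved; with 1 library per treatment none is a test. The number of members, 131, became 221 with median-of-ratios factors, 238 at 3-fold, 36 at 8-fold, 1526 at a minimum of 1 FPKM, 73 at 10 FPKM, 56 where the interval had to reach 4-fold and 76 with 1 FPKM added. The 2 members at 0 counts elsewhere became 0 with at least 50 counts. The 54 members above the product became 33 with an interval beyond 2-fold and 29 with at least 10 control counts. Calls of members higher than the control became 52 for acclimation and 66 for freezing alone where an interval excluding equal levels was enough, 14 and 28 beyond 4-fold (over all unigenes 15.3% and 12.4% at the looser limit, 1.36% and 1.35% at the stricter), and 37 and 72 among members chosen with TMM. Calls lower than the control, 0 in both, became 2 for acclimation among members chosen with TMM and 1 for freezing alone where equal levels were excluded. Freezing alone against acclimation gave 42 higher and 17 lower where equal levels were excluded (15.4% and 13.4% of all), 9 and 1 beyond 4-fold (1.24% and 0.825%), and 38 and 4 among members chosen with TMM. The median length became 571 bases at 8-fold and 780 with at least 50 counts. The members' share of the acclimated and frozen library became 0.0889% at 8-fold and 1.15% with TMM. The cause of changes with scaling was not tested. Stricter limits give fewer calls by construction. No paired analysis was possible because each treatment has 1 library. Depth limits the scarce members: 93 of 131 had fewer than 10 control counts.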
